A study of Mus musculus with 19 samples.

Results

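The genes described here encode 8 secreted proteins that bind or modulate BMPs and activins outside the cell. The list goes by what the proteins do, and its members make up 8 of the 35596 genes quantified. Nog, Chrd, Grem1 and Sostdc1 encode antagonists that bind BMPs, Fst and Fstl1 encode follistatin and a follistatin-like protein, and Twsg1 and Bmper encode modulators that act with chordin or share its domains. All 8 were detected in every library and passed the filter on low counts in every comparison.

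The data are mRNA-seq libraries of the whole vomeronasal organ (VNO) of female mice at postnatal day 21, from 2 lines in which Cre deletes Smad4, whose protein carries both BMP and TGFβ signals to the nucleus. In the AP-2εCre line (AP2e in the labels) Cre is driven in basal vomeronasal sensory neurons (VSNs) from an immature stage, and in the OMPCre line it is driven once VSNs, apical or basal, are mature. Each line has 3 libraries of conditional knockouts (cKO, carrying 1 Cre allele and floxed Smad4), 3 of Cre heterozygotes (Het, 1 Cre allele), and 3 that the labels call wild type and the methods of the study give as Smad4 flox/flox without Cre (here WT). The Het and WT libraries of a line are its 6 controls, and both Het and cKO animals carry the Cre allele. One more AP-2εCre library, with a Het title and a cKO genotype label, was left out of every comparison. Strain, pooling and litters are not given in the sources used here, so the p-values measure the spread between these libraries.

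BMPs and activins signal through paired serine/threonine kinase receptors that phosphorylate Smad proteins, which enter the nucleus together with Smad4. Secreted antagonists such as noggin, chordin and gremlin bind BMPs and keep them from the receptors, and follistatin does the same for activins. Twisted gastrulation and Bmper can either block or promote BMP signaling, depending on what else is bound. Cre is driven in neurons in both lines, and these libraries hold the neurons together with glands, connective tissue, vessels and bone, so that a change in the number of cells of a type and a change in RNA per cell cannot be told apart.

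Total estimated counts ran from 43385516 to 134042284 per library over the 19 libraries, so that 3 counts amounted to at most 0.0691 CPM before TMM scaling. CPM are counts scaled to library size, by TMM in all values below. All 8 VSN markers examined, among them Trpc2 and Vmn2r1, were present in every library, at a sum of 1173 to 1834 CPM. Genes of glands and ciliated epithelium (18473 to 51993 CPM) and of fibroblasts (16395 to 40419 CPM) gave far more RNA. Smad4 lay between 33.8 and 66.5 CPM in the AP-2εCre cKO libraries and between 39.6 and 81.0 CPM in their controls, which overlapped. In the OMPCre line it lay between 54.4 and 62.4 CPM in the cKO libraries, below all 6 controls (64.6 to 83.8 CPM). These counts cover the whole gene and the whole organ. With antibodies, the study found Smad4 protein largely lost from the targeted neurons of both lines, at other ages. The animals' names in the deposited files come in 2 forms, a line prefix with a number (1 library in each group) and a letter with a number (2 libraries in each group). The labels do not say what the forms stand for, and the forms were used only as they are written.

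On GRCm38 (GENCODE vM21) the genes lie at chr11:89300638-89302332 (Nog, minus strand), chr16:20733127-20742384 (Chrd, plus), chr2:113746164-113758646 (Grem1, minus), chr12:36314139-36318452 (Sostdc1, plus), chr13:114452290-114458951 (Fst, minus), chr16:37776873-37836514 (Fstl1, plus), chr17:65921972-65951226 (Twsg1, minus) and chr9:23223076-23485200 (Bmper, plus). All 8 are annotated as protein coding. Of these genes, 5 had a RefSeq promoter window on GRCm38.p6 (Grem1, Bmper, Chrd, Fstl1 and Twsg1), and Nog, Fst and Sostdc1 had none. The 250 bases before the transcription start are shown for Bmper, Grem1 and Chrd. Bmper and Grem1 are the members whose Het libraries lay above WT in the AP-2εCre line. Chrd is the member whose CPM were highest in the library with a line-prefixed name in all 6 groups. The bases are written 5′ to 3′ on the strand of the gene. Capitals mark the letters CAGAC on either strand, the core of a Smad-binding element, and the palindrome GGCGCC, a GC-rich sequence also bound by Smads.

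Bmper, plus strand, chr9:23222826-23223075: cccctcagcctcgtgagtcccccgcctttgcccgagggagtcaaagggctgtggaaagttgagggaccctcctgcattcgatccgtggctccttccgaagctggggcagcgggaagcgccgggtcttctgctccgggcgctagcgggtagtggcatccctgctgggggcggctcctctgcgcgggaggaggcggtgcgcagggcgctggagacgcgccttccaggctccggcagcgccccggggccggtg

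Grem1, minus strand, chr2:113758649-113758898: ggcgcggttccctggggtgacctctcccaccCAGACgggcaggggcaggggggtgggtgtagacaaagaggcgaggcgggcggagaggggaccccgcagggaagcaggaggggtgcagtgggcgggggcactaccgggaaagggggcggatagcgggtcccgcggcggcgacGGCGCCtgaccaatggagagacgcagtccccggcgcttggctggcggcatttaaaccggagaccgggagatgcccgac

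Chrd, plus strand, chr16:20732877-20733126: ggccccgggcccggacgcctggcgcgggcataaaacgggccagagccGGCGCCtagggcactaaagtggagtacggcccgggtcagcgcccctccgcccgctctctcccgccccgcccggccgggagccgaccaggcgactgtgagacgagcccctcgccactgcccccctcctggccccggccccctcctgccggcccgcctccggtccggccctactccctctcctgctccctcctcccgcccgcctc

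The Bmper window held neither motif. The Grem1 window held 1 CAGAC match and 1 GGCGCC match, and the Chrd window 1 GGCGCC match. Among all 32544 windows of this length, 42.2% held CAGAC on either strand and 9.65% held GGCGCC. These matches describe letters in the window, and nothing was measured on the binding of a factor there.

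Levels between genes were compared per length, as TPM in the 12 control libraries. Fstl1 was the most abundant member at 256 ± 96.2 TPM (SD, n = 12), followed by Twsg1 at 79.6 ± 19.4 TPM and Fst at 21.3 ± 8.78 TPM. The other 5 genes lay far lower, with Sostdc1 at 3.32 ± 2.97 TPM, Nog at 2.65 ± 0.864 TPM, Bmper at 2.21 ± 1.18 TPM, Grem1 at 0.996 ± 0.355 TPM and Chrd at 0.991 ± 0.362 TPM. Each of the first 3 steps of this order held in 12 of 12 libraries (exact sign-flip permutation test of the log2 ratio, two-sided, p = 0.000488, the smallest that 12 libraries allow; 0.00114 after Benjamini-Hochberg adjustment over the 7 neighbouring pairs). Bmper also exceeded Grem1, in 11 of 12 libraries (exact permutation p = 0.00146, adjusted 0.00256). Sostdc1 and Nog did not differ beyond their spread (adjusted p = 0.807, exact permutation test), nor did Nog and Bmper (0.155, exact permutation test) or Grem1 and Chrd (0.99, exact permutation test). In summed TPM the widest step lay below Fst, at a mean log2 ratio of 2.83. The 5 genes below it are called the sparse set here. In CPM and in TPM of the transcript with most reads, the widest step lay between Twsg1 and Fst (2.62 and 2.41). Among the 15838 genes with a mean of at least 1 CPM over the 18 assigned libraries, Fstl1 ranked 210, Twsg1 538 and Fst 5690, while the sparse set ranked between 12119 and 13769.

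**Figure D1:**
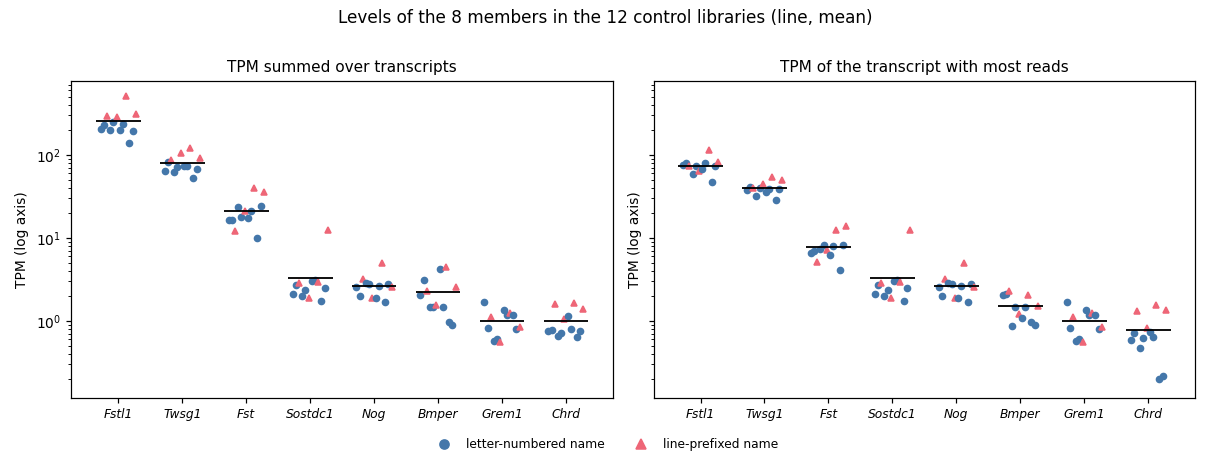
TPM of the 8 members in the 12 control libraries on a log axis, summed over the transcripts of a gene (left) or for its transcript with most reads (right). Each point is a library, the line is the mean, and triangles mark libraries with a line-prefixed name. Fstl1 lies highest in both panels, and its mean drops from 256 to 74.3 TPM when only its main transcript is counted.

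The summed TPM of Fstl1, Twsg1, Fst and Bmper rested in part on short transcripts that held fewer of the reads. Fstl1-204, a non-coding transcript of 298 bases, took a median of 2.82% of the Fstl1 reads and 66.4% of its summed TPM, while Fstl1-201 (protein coding, 3789 bases) took 96.4% of the reads. Twsg1-203, a protein-coding entry of 406 bases, took 3.57% of the Twsg1 reads and 46.2% of its TPM. For Fst, a retained-intron entry of 673 bases (Fst-203) took 15.7% of the reads and 48.8% of the TPM, and the coding Fst-202 took 74.3% of the reads. Of the other coding entries, Fst-205 took 8.75% of the reads and Fst-201 had none in any of the 18 libraries. For Bmper, a coding entry of 640 bases (Bmper-202) took between 0% and 23.4% of the reads. Counting only the transcript with most reads gave 74.3 ± 16.1 TPM for Fstl1, 40.3 ± 7.01 for Twsg1 and 7.86 ± 2.76 for Fst and 1.501 ± 0.510 for Bmper (SD, n = 12), and the order of the 8 genes was kept. On that scale Nog exceeded Bmper in 11 of 12 libraries (exact permutation test, adjusted p = 0.00171), and 5 of the 7 neighbouring pairs differed. The excess of Fstl1 over Twsg1 shrank with it, from 1.65 to 0.87 as the mean log2 ratio. Nog, Grem1 and Sostdc1 each have 1 annotated transcript, so their values did not depend on this choice. Chrd was split less stably: the coding Chrd-201 took between 38.3% and 98.6% of its reads, and the nonsense-mediated-decay entry Chrd-204 between 0% and 49.8%.

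All values below are CPM, given for replicates 1, 2 and 3 of a group in that order. Nog, which encodes the BMP antagonist noggin, was measured at 5.996, 5.285 and 2.922 CPM in the AP-2εCre WT libraries. In that line the Het libraries gave 5.14, 3.39 and 5.51 CPM and the cKO libraries 4.71, 5.96 and 4.28 CPM. The 3 groups overlapped, with the lowest library in WT. Nog in the OMPCre line stood at 3.93, 5.12 and 3.53 CPM in WT, at 3.57, 4.87 and 6.61 CPM in Het, and at 4.10, 5.19 and 3.92 CPM in cKO, and again every group overlapped the others.

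Chrd, which encodes chordin, stood at 2.55, 2.78 and 3.51 CPM in the AP-2εCre WT libraries, 3.25, 2.82 and 5.07 in Het, and 4.76, 3.38 and 3.42 in cKO. The corresponding OMPCre values were 2.41, 2.22 and 4.01 CPM in WT, 3.47, 3.11 and 4.56 in Het, and 2.25, 3.58 and 3.94 in cKO. Genotypes overlapped throughout, and in each of the 6 groups the highest value belonged to the 1 library with a line-prefixed name.

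Grem1, the gene of gremlin 1, a BMP antagonist of the DAN family, was lowest in the AP-2εCre WT libraries (3.21, 3.11 and 2.34 CPM). It lay at 9.10, 3.73 and 5.19 CPM in Het and at 4.25, 5.89 and 3.799 CPM in cKO of that line. The OMPCre libraries gave 7.37, 3.997 and 3.12 CPM in WT, 6.99, 5.86 and 4.50 in Het, and 4.198, 4.944 and 2.599 in cKO, with overlap between all 3 groups.

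Sostdc1 encodes a secreted modulator of BMP and Wnt signaling. Its AP-2εCre values were 4.43, 4.71 and 3.07 CPM in WT, 4.51, 4.89 and 5.17 in Het, and 4.03, 4.36 and 5.28 in cKO. The OMPCre WT libraries stood at 4.30, 4.88 and 18.5 CPM, the last more than any other library by a wide margin. The OMPCre Het libraries gave 6.08, 6.10 and 4.19 CPM and the cKO libraries 5.66, 7.26 and 4.72 CPM.

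Fst, the gene of follistatin, varied as much within a genotype as between genotypes. It was measured at 39.7, 33.4 and 27.1 CPM in AP-2εCre WT, 31.7, 27.8 and 20.2 in Het, and 40.4, 37.1 and 26.8 in cKO. The OMPCre values were 22.3, 38.0 and 45.1 CPM in WT, 28.8, 35.8 and 43.5 in Het, and 29.9, 43.5 and 40.2 in cKO. Over the 18 libraries its coefficient of variation was 22.1%.

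Fstl1, which encodes a secreted glycoprotein of connective tissue, lay at 314, 359 and 259 CPM in the AP-2εCre WT libraries and at 377, 345 and 332 CPM in Het. The 3 cKO libraries of this line lay at 448, 365 and 395 CPM, and only the Het library at 377 CPM exceeded the lowest of them. In the OMPCre line Fstl1 lay at 281, 340 and 298 CPM in WT, at 331, 376 and 403 in Het, and at 297, 363 and 315 in cKO, without a separation of the cKO group.

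Twsg1, the gene of twisted gastrulation, was the steadiest member. It ran from 181 to 219 CPM over the 18 libraries, with a coefficient of variation of 5.02%, and its group means lay between 190.3 and 197.4 CPM. No group stood apart in either line.

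Bmper, which encodes a BMP-binding protein with chordin-like domains, was measured at 4.88, 6.95 and 4.85 CPM in AP-2εCre WT and at 10.1, 9.17 and 9.65 CPM in Het, which did not overlap. The cKO libraries of that line, at 9.64, 7.39 and 6.85 CPM, lay between these groups and overlapped both. Among OMPCre libraries WT gave 5.56, 4.08 and 5.61 CPM and Het 6.76, 6.68 and 7.51 CPM, again without overlap, while cKO gave 3.73, 4.72 and 6.61 CPM and overlapped WT.

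**Figure D2:**
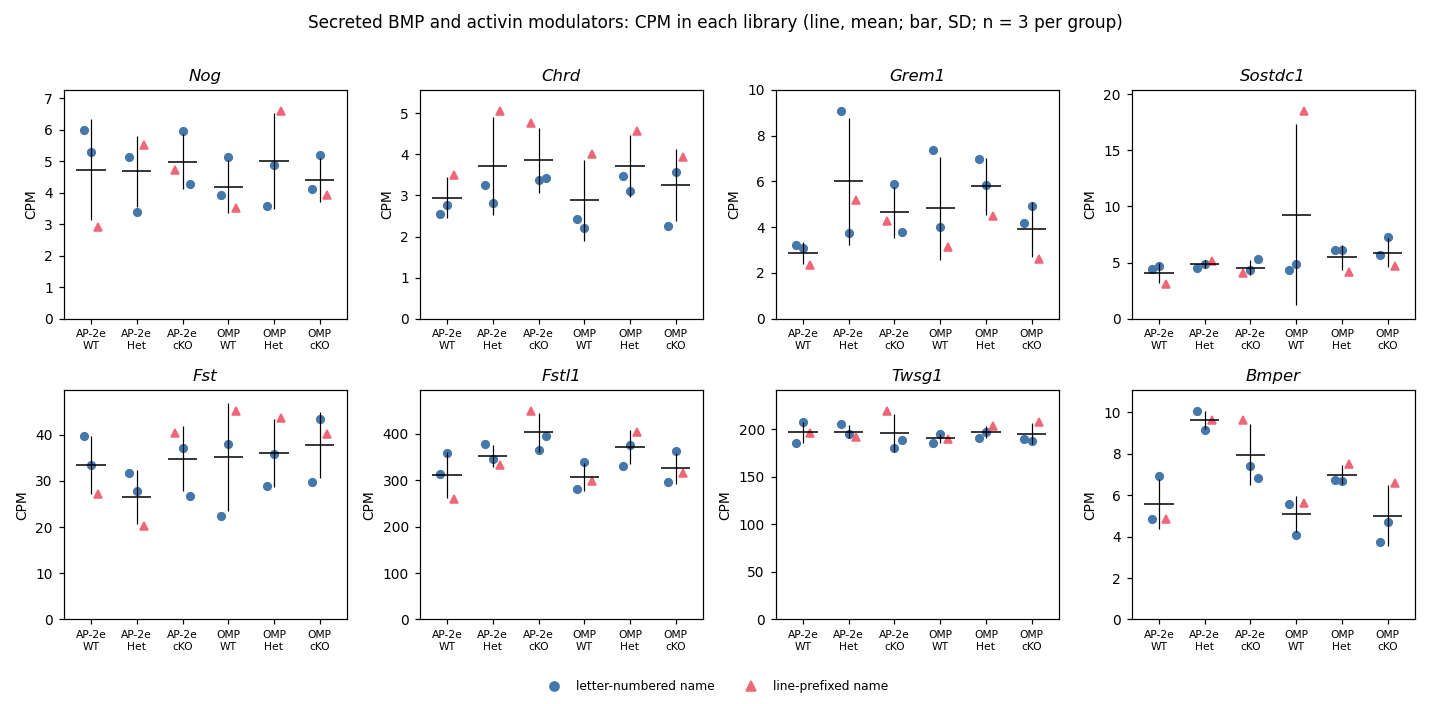
CPM of each member in the 18 libraries by line and genotype, with the mean (line) and SD (bar) of the 3 libraries of a group and with triangles for libraries with a line-prefixed name. Bmper is higher in Het than in WT in both lines, Sostdc1 has 1 OMPCre WT library at 18.5 CPM, and the triangle is the highest Chrd value in all 6 groups.

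The first question was whether removal of Smad4 moved these genes. In the AP-2εCre line, 0 of the 8 members were called between the 3 cKO and the 6 control libraries (edgeR quasi-likelihood test, Benjamini-Hochberg adjusted p under 0.05), where 0.0378% of the 18495 genes tested were called. DESeq2 also called 0 of the 8, and 314 of the 20554 genes it tested. At an unadjusted p under 0.05 there was 1 member, Fstl1, where 10.2% of all genes were under it. Its mean was 402.5 ± 42.2 CPM in cKO (SD, n = 3) and 331 ± 41.6 CPM in controls (n = 6). The log2 fold change was 0.29 (SE 0.12, 95% interval 0.02 to 0.55, unadjusted p = 0.0377, adjusted 0.454 in edgeR's quasi-likelihood test). The exact permutation test of the same values gave p = 0.0476 over 84 assignments, two-sided, where 0.0119 is the smallest possible. In summed TPM the exact permutation test gave p = 0.143 for Fstl1, and p = 0.0357 for Fst and 0.0476 for Bmper, so the members under 0.05 differed with the unit. The summed level of 7 fibroblast genes lay at 32496 to 40419 CPM in cKO and 17252 to 39427 CPM in controls. That of 6 genes of glands and ciliated epithelium lay at 18473 to 23822 CPM in cKO, below all 6 controls (31606 to 51993 CPM). Progenitor and immature neuron genes were above 0 in 8 of 8 cases (median log2 fold change 0.36), bone genes in 7 of 7 (0.16) and immune genes in 6 of 6 (0.22), with none called. Smooth muscle and pericyte genes were above 0 in 4 of 5 cases (0.28), also with none called. The part of these cell populations in the Fstl1 values was not tested. The other 7 members had log2 fold changes between 0.00 (Twsg1) and 0.22 (Fst). The intervals were narrow for Twsg1, at -0.18 to 0.17, and wide for Grem1, at -0.80 to 0.93. None of the 8 separated the cKO from the control libraries, a pattern that 5.06% of all genes showed in either direction.

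In the OMPCre line, 0 of the 8 members were called by edgeR and 0 by DESeq2, and 0 reached an unadjusted p under 0.05. Over all 18623 genes, edgeR called 0% here (735 genes at an unadjusted p under 0.05), and DESeq2 called 45 of 18795 genes. The value farthest from 0 was that of Grem1, at 3.914 ± 1.198 CPM in cKO (SD, n = 3) against 5.31 ± 1.71 CPM in controls (n = 6), a log2 fold change of -0.44 (SE 0.31, 95% interval -1.14 to 0.26, adjusted p = 1 in edgeR's quasi-likelihood test). It was -0.22 without cKO replicate 3, where Bmper at -0.51 was farther from 0. For Fstl1 it was -0.06 (95% interval -0.33 to 0.21), and for Twsg1 0.01 (95% interval -0.13 to 0.15). No member separated the groups, and 2.34% of all genes did.

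An interaction term fitted to all 18 libraries asked whether the cKO effect differed between AP-2εCre and OMPCre. None of the 8 members was called by edgeR or DESeq2, against 0.00514% of the 19465 genes tested by edgeR and 53 of 20485 by DESeq2. Fstl1 had an unadjusted p of 0.048, under 0.05 as for 5.05% of all genes, with an effect in the OMPCre line lower by 0.34 on the log2 scale (SE 0.16, edgeR quasi-likelihood test, adjusted p = 0.986). Leaving out AP-2εCre cKO replicate 1 brought the difference to -0.26 with an unadjusted p of 0.136.

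**Figure D3:**
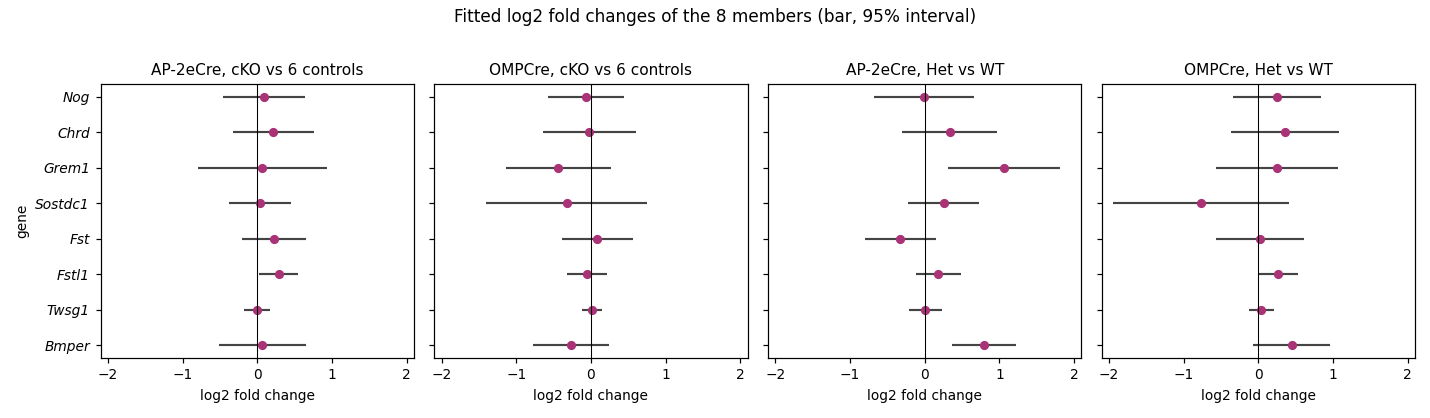
Log2 fold changes of the 8 members from edgeR with their 95% intervals, for cKO against the 6 controls and for Het against WT in each line. The intervals of all members but Fstl1 include 0 in the AP-2εCre cKO comparison, all include 0 in the OMPCre cKO comparison, and Bmper and Grem1 lie above 0 in the AP-2εCre Het comparison.

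Because the controls of each line are of 2 kinds, the Het and WT libraries were compared next. In the AP-2εCre line Bmper averaged 9.63 ± 0.442 CPM in Het and 5.56 ± 1.21 CPM in WT (SD, n = 3 each), a fold change of 1.73 (log2 0.79, SE 0.19, 95% interval 0.36 to 1.22). Its unadjusted p was 0.00227, and it did not pass the adjustment over all genes (edgeR quasi-likelihood test, adjusted p = 0.499), while DESeq2 called it at an adjusted p of 0.0418 among 125 of 20587 genes. Grem1 averaged 6.01 ± 2.78 CPM in Het and 2.88 ± 0.476 CPM in WT, a log2 fold change of 1.06 (SE 0.33, 95% interval 0.31 to 1.81, unadjusted p = 0.0108, adjusted 0.812 in edgeR's quasi-likelihood test). It fell to 0.62 without Het replicate 1, the library at 9.10 CPM. For both genes the 3 Het libraries lay above the 3 WT libraries, in which case the exact permutation test gives p = 0.1, the smallest it can give. Such a separation was seen for 2 of the 8 members and for 9.92% of all genes in either direction, and the calls by edgeR were 0 of 8 and 0.0487% of all genes. Marker lists differed between the same libraries, with no gene of the lists named here called. All 8 VSN markers had values below 0 (median log2 fold change -0.27, 3 with an unadjusted p under 0.05), and their sum was 1173 to 1584 CPM in Het against 1684 to 1747 CPM in WT. The list holds Tfap2e, the locus of the Cre allele. All 6 cartilage genes had values above 0, with sums of 113 to 205 CPM against 23.1 to 151 CPM. Of the 6 sustentacular genes 2 were above 0 and 4 below, while the sum ran from 1274 to 2599 CPM against 1104 to 1355 CPM, highest in Het replicate 1. Their part in the Grem1 and Bmper values was not tested.

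In the OMPCre line, Bmper averaged 6.98 ± 0.461 CPM in Het and 5.08 ± 0.868 CPM in WT (SD, n = 3 each). The log2 fold change was 0.45 (SE 0.23, 95% interval -0.07 to 0.96, unadjusted p = 0.0839, adjusted 0.833 in edgeR's quasi-likelihood test), and the groups did not overlap (exact permutation p = 0.1). It was the 1 member of 8 whose groups were apart, against 11.5% of all genes. All 7 fibroblast genes (median log2 fold change 0.30) and all 7 bone genes (0.32) had values above 0 in this comparison, and 5 of 6 cartilage genes were below 0 (median -0.51), with none called. Their part in the Bmper values was not tested. No member was called by edgeR or by DESeq2, against 0.0752% of all genes by edgeR and 158 of 19841 by DESeq2. No member had an unadjusted p under 0.05. Grem1, at 5.79 ± 1.25 CPM in Het and 4.83 ± 2.24 CPM in WT, overlapped between the groups.

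The Het and WT libraries of both lines were then pooled, with the line in the model, a comparison chosen after these values were seen. Bmper stood at 8.304 ± 1.503 CPM in 6 Het libraries and 5.32 ± 0.975 CPM in 6 WT libraries (SD), with a log2 fold change of 0.62 averaged over the lines (SE 0.15, 95% interval 0.30 to 0.94, unadjusted p = 0.000837, adjusted 0.145 in edgeR's quasi-likelihood test). The exact permutation test within lines gave p = 0.005, the smallest of 400 assignments. Leaving out each library in turn kept the log2 fold change between 0.56 and 0.72, and DESeq2 called the gene at an adjusted p of 0.0144. Grem1 gave 0.66 on the log2 scale (SE 0.26, unadjusted p = 0.0218, adjusted 0.578 by edgeR), and Fstl1 one of 0.23 (SE 0.09, unadjusted p = 0.0247, adjusted 0.596 by edgeR). The 8 members had a median log2 fold change of 0.17, where that of all genes was 0.00. By edgeR 0 of the 8 were called, against 0.18% of all genes. DESeq2 called 1 of the 8, and 217 of the 20485 genes it tested. Bmper was the 1 member with every Het library above every WT library within each line, a pattern of 0.529% of all genes. This held in CPM. In summed TPM Bmper overlapped in the OMPCre line (1.48 to 4.43 TPM in Het, 0.899 to 2.56 TPM in WT; exact permutation p = 0.04 within lines), and Grem1 was the member without overlap in either line (1.24 ± 0.289 against 0.757 ± 0.235 TPM, SD, n = 6 each, exact permutation p = 0.005), a pattern of 0.396% of all genes in TPM. Marker lists differed here too. All 8 VSN markers had values below 0 (median -0.24), though only 5 of 8 in the OMPCre line alone, and Gnai2 and Meis2 stood at -0.02 and -0.04. The list holds the loci of both Cre alleles, Tfap2e (log2 fold change -0.62, adjusted p = 0.0296 by edgeR), the 1 gene of the list that was called, and Omp (-0.45, adjusted p = 0.19 by edgeR). All 7 fibroblast, 6 cartilage and 7 bone genes had values above 0 (medians 0.20, 0.54 and 0.21), with none called, although in the OMPCre line alone 5 of the 6 cartilage genes were below 0. Their part in the Bmper and Grem1 values was not tested. The Het and WT libraries also serve as the controls of the cKO comparisons. With WT as the only control, the AP-2εCre cKO libraries had a Bmper log2 fold change of 0.51 (unadjusted p = 0.0472, adjusted 0.604 by edgeR), and with Het as the only control one of -0.27 (adjusted p = 0.685 by edgeR). Grem1 likewise stood at 0.69 with WT alone (unadjusted p = 0.0288, adjusted 0.53 by edgeR) and at -0.36 with Het alone (adjusted p = 0.814 by edgeR). In the OMPCre cKO libraries, Bmper had a log2 fold change of -0.475 against Het alone (adjusted p = 1 by edgeR) and -0.03 against WT alone.

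The 6 controls of the OMPCre line were compared with the 6 of the AP-2εCre line. None of the members was called by edgeR or DESeq2, against 0.2% of all genes by edgeR and 201 of 19960 by DESeq2. No member separated the lines, as 0.488% of all genes did. Sostdc1 was the 1 member with an unadjusted p under 0.05, where 7.44% of all genes had one. It averaged 7.35 ± 5.54 CPM in OMPCre controls and 4.46 ± 0.731 CPM in AP-2εCre controls (SD, n = 6 each), a log2 difference of 0.68 (SE 0.30, unadjusted p = 0.0369, adjusted 0.64 in edgeR's quasi-likelihood test). Without OMPCre WT replicate 3 the difference was 0.17 (adjusted p = 0.991). The same library changed the sign of the Sostdc1 value for Het against WT in the OMPCre line, from -0.77 with it to 0.25 without it. It also stood apart in skeletal muscle genes, with 93.4 CPM summed over Acta1, Myh4, Ckm and Tnnt3 where the other 17 libraries had 1.29 to 6.45 CPM. Casp14 and Dsc1, genes of cornified epidermis, were at 19.4 and 107 CPM in it and at most 0.886 and 6.99 CPM elsewhere. The part of such tissue in the Sostdc1 value was not tested.

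The pathway around the members was examined with 4 lists: 25 further secreted modulators and processing enzymes, 20 ligands, 14 receptors and co-receptors, and 12 genes that respond to BMP. No gene of these lists was called by edgeR in any cKO, Het, interaction or line comparison. In the AP-2εCre cKO comparison the 22 modulators tested had a median log2 fold change of 0.16, with 17 above 0, and the 16 ligands tested one of 0.21, with 13 above 0, where the median of all genes was 0.00. The 14 receptors were at 0.00, with 6 above 0, and the 12 response genes at 0.02, also with 6 above 0. The 8 members had a median of 0.08 there, with 7 above 0. In the OMPCre cKO comparison the medians of the members and the 4 lists lay between -0.06 and 0.01.

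Genes of each list with the smallest unadjusted p were as follows, all with edgeR adjusted p-values of 0.328 or more. In the AP-2εCre cKO comparison they were Crim1, a membrane-tethered BMP-binding protein (log2 fold change -0.31), Bmp1, a protease that cleaves chordin (0.34), the activin subunit Inhbb (-0.44), Gdf11 (0.24), the co-receptor Eng (0.18), the activin receptor Acvr1c (-1.56), and the inhibitors of differentiation Id2 (-0.25) and Id4 (-0.21). In the OMPCre cKO comparison they were the chordin-like Kcp (0.93), Nbl1, a DAN-family antagonist (0.27), the ligands Bmp8a (0.36) and Gdf10 (0.22), the co-receptor Rgmb (0.16), Acvr2a (-0.16), Id4 (-0.22) and Id1 (-0.25). For Het against WT in the AP-2εCre line the list was led by the chordin protease Tll1 (0.91) and Smoc2 (0.31), the ligands Gdf6 (3.76) and Bmp5 (0.44), the decoy receptor Bambi (0.23) and Bmpr1b (0.14), and Id2 (0.20) and Id4 (0.18). For Het against WT in the OMPCre line it was led by Pcolce (0.36), the ligands Bmp8b (-1.16) and Bmp4 (-0.21), the receptors Acvr1c (1.15) and Acvr2b (0.50), and Id4 (0.17) and Msx2 (-0.38). These values describe the libraries, and no list stood apart by a call.

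Gdf6, a BMP-family ligand, was also among the 3 genes whose levels followed Grem1 most closely (Pearson r of log2 values 0.86 over 18 libraries, of 15837 genes searched). It lay at 1.28, 0.777 and 0.195 CPM in AP-2εCre WT, 21.2, 0.724 and 8.26 CPM in Het, and 1.1, 2.23 and 0.513 CPM in cKO. The library at 21.2 CPM is the Het library with the highest Grem1. Gdf6 in the OMPCre line lay at 5.95, 0.547 and 0.72 CPM in WT, 5.51, 2.28 and 1.02 in Het, and 2.01, 1.74 and 0.915 in cKO. The other two were Gprc5a (r = 0.87) and Gpha2 (r = 0.82).

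**Figure D4:**
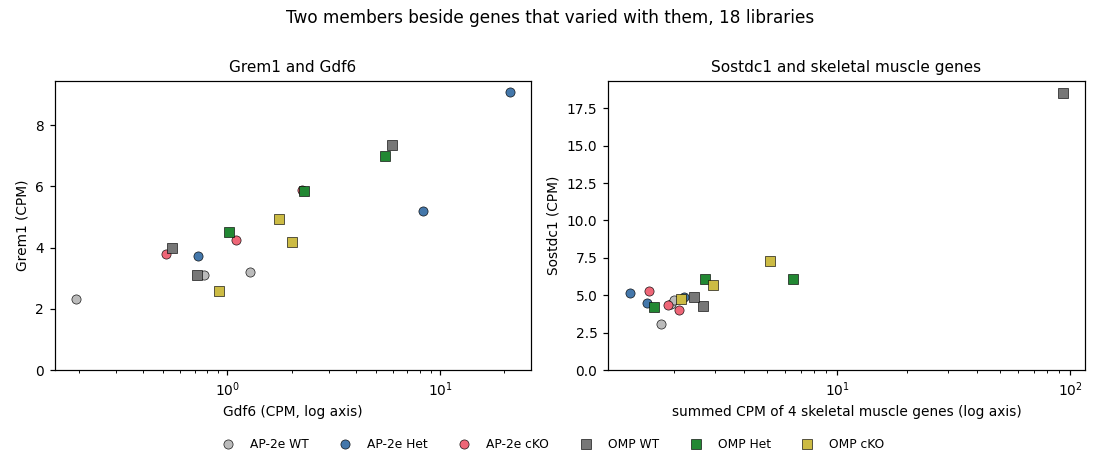
Grem1 CPM against Gdf6 CPM (left) and Sostdc1 CPM against the summed CPM of 4 skeletal muscle genes (right) in the 18 libraries, with log horizontal axes. Grem1 climbs with Gdf6 up to the AP-2εCre Het library at 21.2 and 9.10 CPM, and 1 OMPCre WT library stands alone at 93.4 and 18.5 CPM.

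The genes most like the other members are given as descriptions, over the same 18 libraries, which share organ composition and depth. Fstl1 followed Sec23a, Fkbp14 and Calu, genes of the secretory pathway (r = 0.91, 0.90 and 0.90), and the summed fibroblast markers (r = 0.81). Fst followed Synpo2, Endod1 and Stum (r = 0.89, 0.88 and 0.88) and the markers of smooth muscle and pericytes (r = 0.87). Chrd followed Nes, Gpsm1 and Arsa (r = 0.87, 0.85 and 0.81), and Nes, like Chrd, was highest in the line-prefixed library of every group. Nog followed Klf2, Abat and Ldb2 (r = 0.79, 0.77 and 0.76), Twsg1 followed Nr3c1, Cog5 and Spred1 (r = 0.83, 0.81 and 0.81), and Bmper followed Glt8d2, Smpd3 and Negr1 (r = 0.82, 0.81 and 0.81). For Sostdc1 the leading genes were Myl1, Casp14 and Dsc1 (r = 0.94, 0.93 and 0.93), and without OMPCre WT replicate 3 these values were 0.75, 0.66 and 0.64. Among the members themselves the highest r was 0.59, between Bmper and Chrd.

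The form of the library name went with more called genes than any genotype comparison. With the group held constant, 12.1% of all genes (2357 of 19465) were called between the 6 line-prefixed and the 12 letter-numbered libraries, a comparison added after the values were seen. In a share close to that of all genes, edgeR called 1 of the 8 members, Chrd. It stood at 4.31 ± 0.585 CPM in line-prefixed and 2.94 ± 0.495 CPM in letter-numbered libraries (SD, n = 6 and 12), a fold change of 1.47 (log2 0.56, SE 0.11, 95% interval 0.32 to 0.80, adjusted p = 0.00606 in edgeR's quasi-likelihood test). The prefixed library was the highest of its group in 6 of 6 groups, which held for 2.11% of all genes, and the exact permutation test within groups gave p = 0.00137, the smallest it can give. Leaving out any 1 library kept the adjusted p between 0.00273 and 0.0253 in edgeR. Grem1 was lower by 0.51 on the log2 scale (SE 0.19, adjusted p = 0.0944 by edgeR, 0.0497 by DESeq2). The other 6 members lay between -0.08 and 0.21. The summed markers of glands and ciliated epithelium and of endothelium were lowest in the line-prefixed library of every group. No other marker list was lowest or highest there in every group. Within groups these 2 sums had an r of -0.69 and -0.65 with Chrd. Their part in the Chrd value was not tested.

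The split between transcripts moved with the name form as well. The short non-coding Fstl1-204 held 3.46% to 4.58% of the Fstl1 reads in the 6 line-prefixed libraries and 1.81% to 3.25% in the 12 others, and was highest in the prefixed library of all 6 groups. Fstl1-202, another non-coding entry, was listed at 0 reads in all 12 letter-numbered libraries and at up to 3.8% of the reads in the prefixed ones, where 5 of 6 were above 0. For Twsg1-203 the prefixed library again held the largest share in 6 of 6 groups, at 4.35 ± 0.675% against 3.36 ± 0.474% (SD, n = 6 and 12). Summed TPM differed as well, and for Fstl1 and Twsg1 it was highest in the prefixed library of all 6 groups. Fstl1 averaged 393 ± 121 TPM in line-prefixed and 213 ± 44.5 TPM in letter-numbered libraries, while its CPM were 343 ± 70.2 and 345 ± 34.5. Twsg1 averaged 109 ± 19.3 against 71.0 ± 10.0 TPM, with CPM of 201 ± 11.1 and 193 ± 8.10. The transcript with most reads gave 91.9 ± 27.9 against 73.2 ± 13.5 TPM for Fstl1 and 50.4 ± 7.27 against 37.2 ± 3.98 TPM for Twsg1. Each of the 6 groups holds 1 prefixed and 2 letter-numbered libraries, so the genotype comparisons are balanced for the form of the name. With the form as a covariate, edgeR called 0 members in the cKO, Het and line comparisons, and Bmper for Het against WT over both lines stood at 0.62 on the log2 scale (adjusted p = 0.0886).

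**Figure D5:**
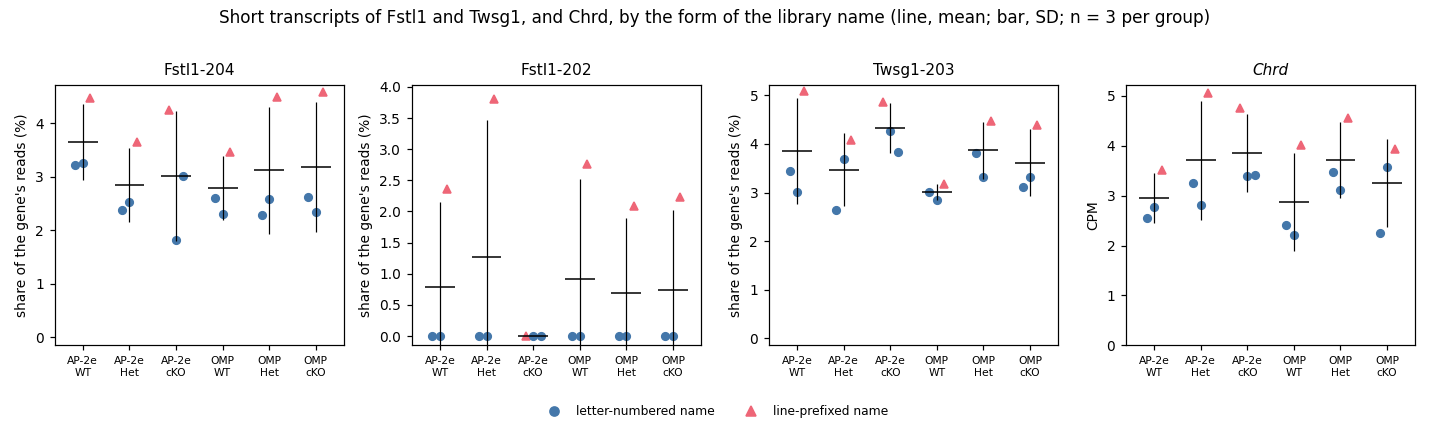
Share of a gene's reads given to Fstl1-204, Fstl1-202 and Twsg1-203, and Chrd CPM, in each library by group, with mean (line) and SD (bar) and with triangles for line-prefixed names. The triangle is the highest point of its group in all 6 groups for Fstl1-204, Twsg1-203 and Chrd, and Fstl1-202 is at 0 in all 12 letter-numbered libraries.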

How the data were processed

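RNA of whole vomeronasal organs was sequenced by the authors and quantified with salmon (version 0.14.0 per the labels). The deposited files give, for each of 116248 transcripts, an estimated count, a TPM and an effective length as the authors' quantification wrote them. Here estimated counts and TPM were summed per gene through the GENCODE vM21 annotation (GRCm38), matching 116072 transcripts, and counts were rounded to whole numbers. The methods name coding sequences as the reference, but the deposited lengths fit whole transcripts (35.5% are multiples of 3).

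Comparisons used edgeR 4.0.16 quasi-likelihood tests (R 4.3.3) with TMM scaling and filterByExpr, with Benjamini-Hochberg adjustment over all genes tested and a threshold of 0.05. The cKO fits were also run on simulated counts with planted changes. This was a check of the code, not of power for smaller changes. Single values were compared with exact two-sided permutation tests. DESeq2 1.42.0, other scaling, other filters, counts rebuilt from length-scaled TPM and left-out libraries were alternatives. Named pathway genes are the 2 of each list with the smallest unadjusted p (one such gene is not reported here), and similar genes the 3 with the highest Pearson r of log2 CPM. The members and lists were chosen with earlier results of these data known.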

Additional observations from a re-analysis of the deposited data

Results flagged for a closer look

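Sostdc1 stood out in both sets of controls. In the 6 OMPCre controls, WT replicate 3 lay at 18.5 CPM, with a gap to the next library that took 0.867 of the range of the group (limit 0.625 for 6 samples). In the 6 AP-2εCre controls, WT replicate 3 was the lowest at 3.07 CPM, with a gap of 0.648 of the range. Both libraries carry a line-prefixed name. The 8 members were examined in 16 groups of 6, and chance alone places about 1 in 20 groups past the limit.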

How the results depend on the processing

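The number of genes called moved with the method. DESeq2 called 314 genes for the AP-2εCre cKO comparison (7 by edgeR), 45 for the OMPCre cKO comparison (0), 125 and 158 for Het against WT in the AP-2εCre and OMPCre lines (9 and 14), 53 for the difference between lines (1), 201 for the line controls (39) and 217 for Het against WT over both lines (35). With length-scaled TPM the AP-2εCre comparisons gave 4 (cKO) and 5 (Het). With at least 1 count as the filter, Het against WT in the AP-2εCre line gave 14 and the difference 2. With the name form as a covariate the counts were 2 and 1 (cKO, AP-2εCre and OMPCre), 5 (AP-2εCre Het), 2 (difference) and 62 (both lines). WT controls alone gave 24 for the AP-2εCre cKO, and Het controls alone 11 for the OMPCre cKO.

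The labels do not say that replicate numbers pair the samples. Same-numbered libraries correlated at a mean of -0.09 in the AP-2εCre line (0.05 for other numbers) and 0.26 in the OMPCre line (-0.13 for other numbers), where the lowest of 9 pairs was 0.04 and so not every pair passed 0.1. In the OMPCre line the line-prefixed library was replicate 3 in every group, so replicate number and name form cannot be fully told apart there. Pairs with the same form of name in that line had a mean of 0.19, and pairs with different forms -0.23. A replicate block gave 2 genes for the AP-2εCre cKO, 3 and 7 for Het against WT in the AP-2εCre and OMPCre lines, and 0 for the difference.

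Leaving out each library gave 2 to 8 (AP-2εCre cKO), 0 to 2 (OMPCre cKO), 3 to 21 (AP-2εCre Het), 6 to 19 (OMPCre Het), 0 to 5 (difference), 22 to 53 (line controls), 24 to 63 (both-line Het) and 1264 to 3058 genes (name form).

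Among the members, DESeq2 called 1 in the AP-2εCre Het and 1 in the both-line Het comparison (Bmper in each) and 2 for the name form (with 3511 of all 19247 genes), length-scaled TPM called 3 there (with 1871 of 19513), and left-out libraries 1 to 2. In the order of levels, 4 of 7 neighbouring pairs differed, 5 of 7 by the transcript with most reads, and 0 of 7 in the WT libraries alone, where the smallest exact permutation p for 6 libraries is 0.0313. Direction turned for Fstl1 by name form, at 0.50 with length-scaled TPM (-0.03 as reported; exact permutation p = 0.00137 in TPM), and for Sostdc1 by name form, at -0.33 to 0.25 with a library left out, the lowest without OMPCre WT replicate 3. A turn was counted only where 1 of the values had an unadjusted p under 0.05. Another 82 of 1256 alternative values changed sign without one. The cause of these changes was not tested. The sparse members with 1 transcript had median counts per library of 278 (Nog), 280 (Grem1) and 305 (Sostdc1).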

Other observations

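The library with a Het title and a cKO genotype label, in the AP-2εCre line, gave 4.26 CPM for Nog, 3.64 for Chrd, 3.62 for Grem1, 3.60 for Sostdc1, 26.6 for Fst, 306 for Fstl1, 208 for Twsg1 and 8.84 for Bmper. All 8 values lay within the range of the 6 AP-2εCre controls. Its Smad4 stood at 87.5 CPM, above the controls (39.7 to 81.1 CPM) and the cKO libraries (33.8 to 66.6 CPM). Its Tfap2e, the gene of AP-2ε, stood at 6.83 CPM, within the controls (5.44 to 16.6 CPM) and below the cKO libraries (10.0 to 12.5 CPM). These values were scaled with all 19 libraries. Scaled with the assigned libraries alone, Tfap2e ran from 5.4 to 8.9 CPM in the AP-2εCre Het libraries and from 14.0 to 16.6 CPM in WT.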
